A study of Paxillus involutus with 18 samples.

Results

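The response of the ectomycorrhizal fungus *Pa. involutus* to a cold-water extract of maize compost (MC) was set against its response to a hot-water extract of spruce forest litter (FH). The comparison took in all 12214 isotigs on the array, the assembled transcripts of the fungus, and 12 of the 18 arrays of the series: 3 MC and 3 MMN arrays of slide 2, and 3 FH and 3 MMN arrays of slide 1. MMN is a mineral medium with glucose and ammonium and served as the control. All mycelia were the wild-type strain ATCC 200175, grown for 9 days in MMN on glass beads, starved for N over 24 h, and moved for 7 days into the extract or back to MMN. Both extracts had passed a 0.2 µm filter and an ultrafiltration step (cut-off 10 kDa) that took out small molecules, and glucose was added to both. The extracts thus hold dissolved organic matter and no intact litter. A hot-water extract of the same compost (MH, 3 arrays, slide 1) and a carboxy methyl cellulose medium (CMC, 3 arrays, slide 2) served for the values given beside the comparison.

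MC and FH lie on different slides, and each slide has its own MMN arrays. A difference was therefore taken as the change on MC against MMN of slide 2 minus the change on FH against MMN of slide 1, on the log2 scale. A positive value means that the isotig stood higher on MC. MC and FH differ in the litter material and in the temperature of extraction. The study also reports unequal C, N and nutrient contents among its extracts, and a pH that fell on FH and rose on MC. These factors cannot be told apart in this comparison. An isotig was called where the adjusted p of limma (Benjamini-Hochberg over all isotigs) was under 0.01 and the difference over 2-fold.

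Ectomycorrhizal fungi live on sugar from tree roots and supply the tree with N, much of which sits in complexes of protein, polysaccharide and polyphenol in soil. Fungi open such complexes with oxidases that attack aromatic rings, with hydrolases that cut polysaccharides, and with hydroxyl radicals made in the Fenton reaction from hydrogen peroxide and ferrous iron. Spruce litter is rich in lignin and other polyphenols, while composted maize leaves come from a grass.

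The medians of the 18 arrays lay between 11.45 and 11.47 on the log2 scale, and the random control probes between 3.69 and 3.85. Levels of different isotigs are not comparable, as probes differ in brightness. The free text of MC replicate 3 names the hot extract, whereas its title, source and medium name MC. The array was kept as MC. After the isotig means were taken off, it correlated at 0.832 on average with the remaining MC arrays, and at 0.408 with MH. The MMN arrays of both slides were near each other for most isotigs. Between MMN of slide 2 and MMN of slide 1, 10 isotigs were called higher (0.0819% of all) and 1 lower (0.00819%), and none of these 11 was called between MC and FH. The gap is taken off in the difference, so this count does not show how far it enters the calls. Among isotigs called between MC and FH, MMN differed between the slides at adjusted p under 0.01 (limma) for 2 of 96 higher and 3 of 75 lower ones. The share of all isotigs at this adjusted p without the 2-fold threshold is not given here. Whether these counts are high or low for the array is thus not shown.

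In total, 171 isotigs differed between MC and FH. Of these, 96 stood higher on MC (0.786% of the isotigs tested) and 75 stood lower (0.614%). The difference was over 4-fold for 16 of the higher and 7 of the lower isotigs. Without the 2-fold threshold, 1566 isotigs (12.8%) passed the adjusted p, 738 higher (6.04%) and 828 lower (6.78%). The standard error of a difference had a median of 0.10 over all isotigs and ran from 0.07 to 0.26 among the called ones. With the MMN mean of its own slide taken off each array, the 3 MC arrays lay above the 3 FH arrays for 96 of 96 higher isotigs, against 23.7% of all isotigs, and below them for 75 of 75 lower isotigs, against 24.8%. The same values made the calls, and a difference over 2-fold with such standard errors leaves little room for overlap. These counts thus describe the calls and are no separate support for them. The median difference over all isotigs was -0.01.

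**Figure D1:**
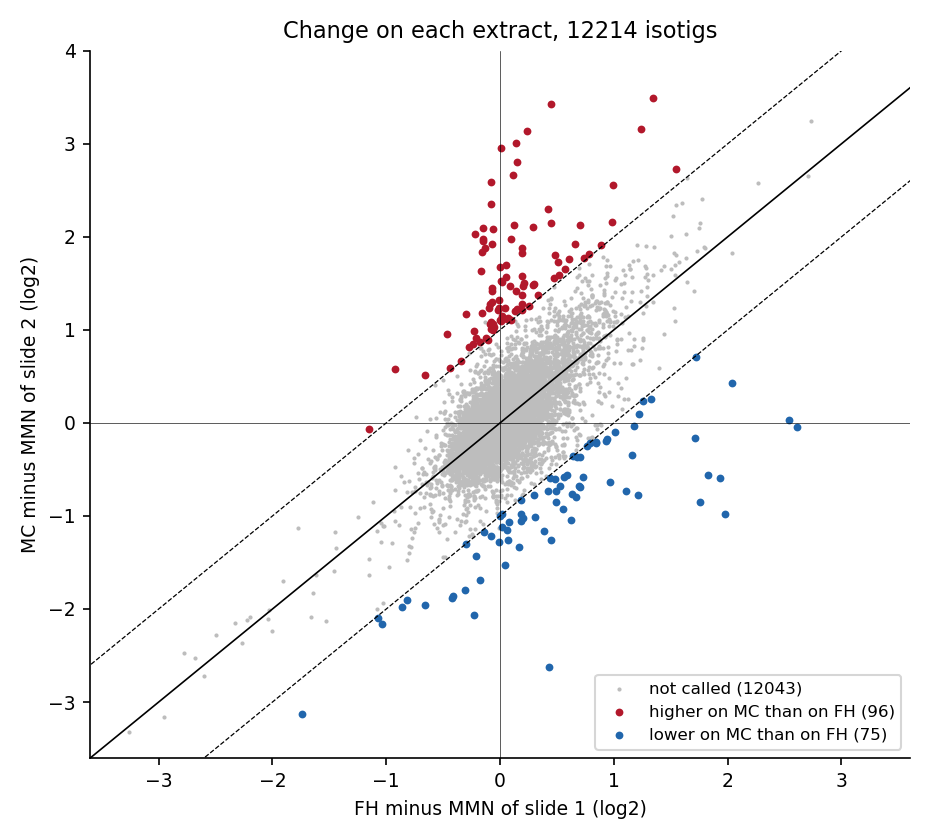
Change of each of the 12214 isotigs against the MMN arrays of its slide, on MC (vertical axis) and on FH (horizontal axis), both on the log2 scale. The solid line marks equal change and the dashed lines a 2-fold difference. Most of the 96 isotigs higher on MC stand above 0 on the MC axis and near 0 on the FH axis, while the 75 lower ones spread along both axes.

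The higher set was mainly a set that rose on MC: 79 of its 96 isotigs were called higher on MC than on MMN and were not called on FH, where all isotigs gave 343 calls higher on MC than on MMN (2.81%) and 118 higher on FH (0.966%). Another 3 were called higher on both extracts, 1 was called lower on FH alone, and 13 were called on neither. The median change of the 96 was 1.48 on MC and 0.04 on FH, and 68 of them lay within 0.3 of MMN on FH, as did 1 on MC. Over all isotigs the median changes were -0.07 on MC and -0.06 on FH.

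The lower set was mixed. Here 27 of 75 isotigs were called lower on MC alone and 17 higher on FH alone. Another 3 were called lower on both extracts, and 28 were called on neither. Whatever the call on the other extract, 102 of all isotigs were called lower on MC than on MMN (0.835%). On FH, 37 of all isotigs were called lower (0.303%). The median change of the 75 was -0.80 on MC and 0.49 on FH. For 34 of them the 2 extracts moved the isotig to opposite sides of MMN, down on MC and up on FH, with an adjusted p under 0.01 for each change, as was so for 0.950% of all isotigs. Of the 96 higher isotigs, 4 moved the other way, up on MC and down on FH, against 0.196% of all isotigs. They were paxillus_4821 (0.58 on MC and -0.92 on FH), paxillus_7918 (1.17 and -0.30), paxillus_5453 (0.96 and -0.47) and paxillus_12395 (0.52 and -0.66), named after their values were seen. The sign of the difference sets which of these ways an isotig of each set can go. Selection for a difference over 2-fold also makes opposite changes more frequent in each set than over all isotigs. No isotig was called on opposite sides of MMN with both changes over 2-fold.

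The files give the isotigs no names, so those with the widest differences are described by number. The widest difference in the higher set was that of paxillus_9755. Its MC arrays read 13.89, 13.89 and 14.15, its FH arrays 11.10, 10.81 and 10.85, its MMN arrays of slide 2 10.61, 10.50 and 10.53, and its MMN arrays of slide 1 10.44, 10.55 and 10.40. All MC arrays lay far above the rest, and the FH arrays only a little above MMN. The difference was 2.98 (standard error 0.25, adjusted p = 1.1e-07 from limma), or 7.88-fold, made of a change of 3.43 on MC and of 0.45 on FH (adjusted p = 0.042). The isotig with the next number, paxillus_9754, was named for its number after its values were seen. It had a difference of 1.88, with MC arrays of 13.55, 13.60 and 13.51 and FH arrays of 11.89, 11.87 and 11.81.

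A pair with adjacent numbers, paxillus_6442 and paxillus_6443, followed the same course. For paxillus_6442 the MC arrays read 13.28, 13.38 and 13.59, the FH arrays 10.55, 10.25 and 10.47, the MMN arrays of slide 2 10.39, 10.53 and 10.47, and those of slide 1 10.46, 10.39 and 10.38. FH and MMN overlapped and MC stood apart. The difference was 2.94 (standard error 0.24) for paxillus_6442 and 2.87 (standard error 0.25) for paxillus_6443, with adjusted p of 9.2e-08 and 1.8e-07 from limma. For paxillus_8662 the MC arrays read 13.47, 13.67 and 13.87 and the FH arrays 10.88, 10.79 and 10.93, with a difference of 2.90 (standard error 0.24). For paxillus_9370 the MC arrays read 12.63, 12.87 and 13.09 and the FH arrays 10.36, 10.27 and 10.27, with a difference of 2.66 (standard error 0.21). In these 4 isotigs the change on FH lay between 0.01 and 0.24 and did not pass the test, the lowest of their adjusted p being 0.25.

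The replicates were tighter for the next group. The MC arrays of paxillus_4416 read 12.28, 12.21 and 12.09, its FH arrays 9.58, 9.71 and 9.57, its MMN arrays of slide 2 9.59, 9.60 and 9.61, and those of slide 1 9.71, 9.71 and 9.69. The isotig thus stood at the MMN level on FH and 6.39-fold above FH on MC (difference 2.67, standard error 0.10, adjusted p = 4.7e-12 from limma). The neighbouring numbers paxillus_4415 and paxillus_4414, singled out after their values were seen, had differences of 2.14 and 2.13. The differences of paxillus_7460, paxillus_7476, paxillus_11880 and paxillus_11353 were 2.55, 2.43, 2.24 and 2.24, with changes on FH from -0.22 to 0.11. Adjacent numbers can be variants of 1 gene, and such isotigs may not be separate measurements. Of the 171 called isotigs, 24 had a called neighbour in number, and none of the 13 adjacent pairs differed in direction. Pairs with near but not adjacent numbers, such as paxillus_4034 and paxillus_4036, are not in this count. The assignment of isotigs to genes is not analysed here.

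**Figure D2:**
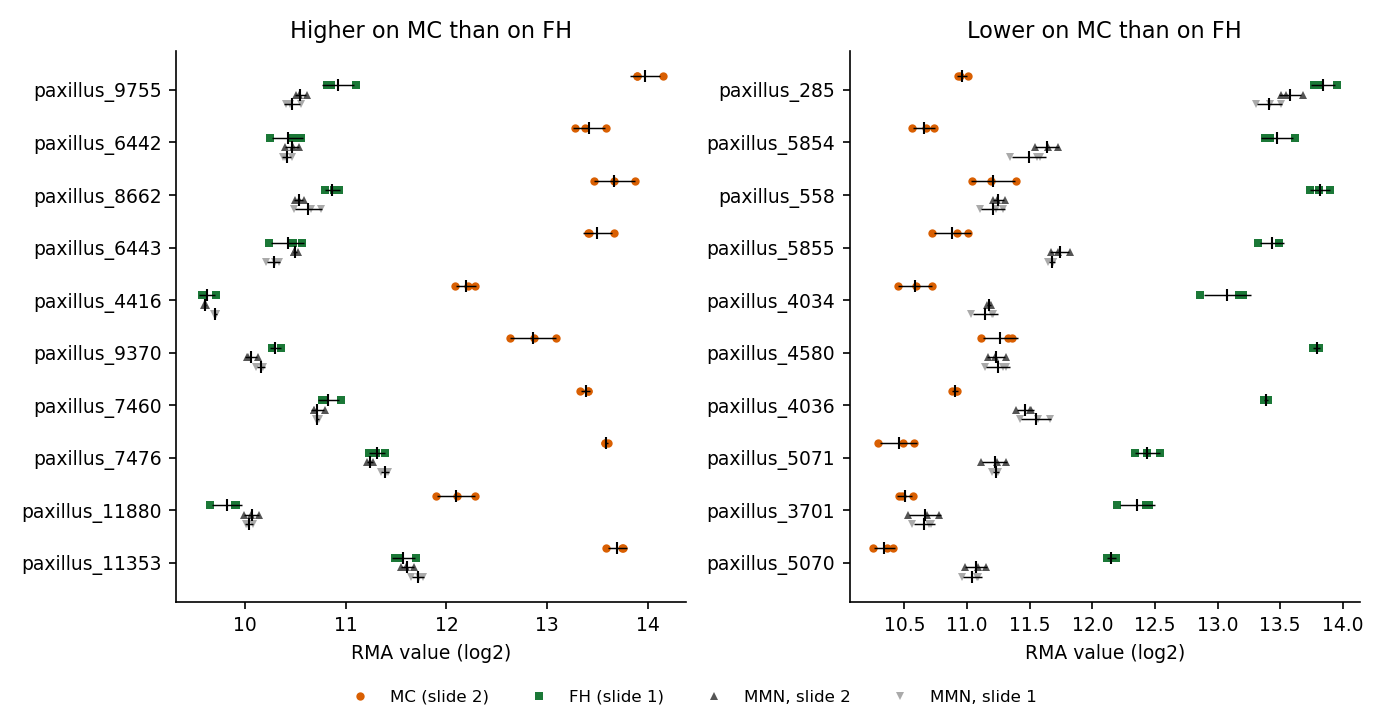
Levels (RMA value, log2) of the 10 isotigs with the largest positive and the 10 with the largest negative difference between MC and FH, on each of the MC, FH and MMN arrays. Points are single arrays, ticks are means and bars are 1 SD (n = 3). In the left panel FH sits at or near MMN, whereas in the right panel FH lies above MMN for each of the 10 isotigs and MC at or below it.

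Over the 2-fold threshold, 3 isotigs were called higher on both extracts than on MMN and higher on MC than on FH. The MC arrays of paxillus_9966 read 13.48, 13.52 and 13.57, its FH arrays 11.13, 10.87 and 11.10, its MMN arrays of slide 2 10.07, 10.08 and 9.96, and those of slide 1 9.74, 9.75 and 9.58. Its change was 3.49 on MC and 1.34 on FH, a difference of 2.15 (standard error 0.26, adjusted p = 9.6e-06 from limma). For paxillus_11263 the changes were 3.16 on MC and 1.24 on FH. The remaining isotig of this class was a phenylalanine ammonia lyase, described with the enzymes. Of the higher set, paxillus_8833 alone was called lower on FH than on MMN at over 2-fold. Its MC arrays read 13.75, 13.71 and 13.72, its FH arrays 12.56, 12.69 and 12.71, and its MMN arrays lay between 13.66 and 13.98 on slide 2 and between 13.71 and 13.94 on slide 1. MC was within the MMN range, the change on FH was -1.15, and the difference was 1.08 (standard error 0.10). The dimmest called isotig, paxillus_12895, was singled out for its low level. Its MC arrays read 4.26, 4.70 and 4.76 and its FH arrays 3.90, 3.81 and 4.01, and the difference of 1.02 included a gap of -0.36 between the MMN arrays of slide 2 and those of slide 1. With no MMN taken off the difference was 0.66, and the call was lost. The other called isotigs had mean levels of 9.12 or more.

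In the lower set the widest difference was that of paxillus_285. Its MC arrays read 11.01, 10.93 and 10.94, its FH arrays 13.95, 13.77 and 13.80, its MMN arrays of slide 2 13.68, 13.51 and 13.55, and those of slide 1 13.51, 13.31 and 13.42. The MC arrays lay far below all others and the FH arrays just above MMN. The change was -2.62 on MC and 0.43 on FH (adjusted p = 0.0004), and the difference of -3.05 (standard error 0.11, adjusted p = 4.7e-12 from limma) was the largest of all called isotigs in size, at 8.27-fold.

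A fall on MC and a rise on FH, each close to or over 2-fold, was seen in the adjacent numbers paxillus_5854 and paxillus_5855. The MC arrays of paxillus_5854 read 10.67, 10.74 and 10.56, its FH arrays 13.42, 13.62 and 13.38, its MMN arrays of slide 2 11.65, 11.54 and 11.73, and those of slide 1 11.56, 11.34 and 11.58. MMN lay between both extracts with no overlap. The changes were -0.98 on MC and 1.98 on FH for paxillus_5854, and -0.85 on MC and 1.76 on FH for paxillus_5855. The differences were -2.96 (standard error 0.11) and -2.61 (standard error 0.10).

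For other members of the lower set, MC stayed at the MMN level and FH rose. The MC arrays of paxillus_558 read 11.04, 11.19 and 11.39, its FH arrays 13.74, 13.81 and 13.90, its MMN arrays of slide 2 11.24, 11.30 and 11.21, and those of slide 1 11.29, 11.23 and 11.10. MC overlapped with MMN, its change being -0.04 (adjusted p = 0.62), whereas the change on FH was 2.61 and the difference -2.66 (standard error 0.11). The same was seen for paxillus_4580, with changes of 0.03 on MC (adjusted p = 0.70) and 2.54 on FH, and for paxillus_3701, with -0.16 (adjusted p = 0.073) and 1.71.

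The isotigs paxillus_4034, paxillus_4036, paxillus_5071 and paxillus_5070 rose on FH and fell by less than 2-fold on MC. For paxillus_4034 the MC arrays read 10.59, 10.72 and 10.45, the FH arrays 13.17, 13.20 and 12.86, the MMN arrays of slide 2 11.18, 11.19 and 11.16, and those of slide 1 11.03, 11.21 and 11.20. The difference was -2.52 (standard error 0.14) for paxillus_4034, -2.39 for paxillus_4036, -1.98 for paxillus_5071 and -1.84 for paxillus_5070. Their changes ran from -0.77 to -0.56 on MC and from 1.11 to 1.93 on FH.

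In contrast, paxillus_5237 and paxillus_13127 were in the lower set mainly through MC. The MC arrays of paxillus_5237 read 11.27, 11.02 and 11.07 and its FH arrays 13.15, 12.78 and 12.94, with changes of -2.06 on MC and -0.23 on FH (adjusted p = 0.043). For paxillus_13127 the changes were -1.26 on MC and 0.45 on FH (adjusted p = 6.1e-05). Finally, 3 isotigs were called lower on both extracts than on MMN and lower on MC than on FH. For paxillus_751 the MC arrays read 10.92, 10.94 and 10.92, the FH arrays 12.08, 12.27 and 12.25, the MMN arrays of slide 2 13.94, 14.17 and 14.05, and those of slide 1 13.89, 13.99 and 13.94. Its changes were -3.13 on MC and -1.74 on FH. The differences of paxillus_7947 and paxillus_3583 were -1.12 and -1.03. With no MMN taken off both calls were lost, and the difference of paxillus_3583 was -0.93.

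The hot extract of the same compost splits the difference between MC and FH into parts, since the values of MC minus MH, each against its own MMN, and of MH minus FH, both on slide 1, add up to it. These values share the MC and the FH arrays with the main comparison and are given side by side as a description. In the higher set the median was 0.63 for MC minus MH and 0.78 for MH minus FH, where the medians over all isotigs were 0.01 and -0.02. In the lower set the medians were -0.54 and -0.81. MC minus MH gave 34 calls higher (0.278% of all isotigs) and 36 lower (0.295%), and MH minus FH gave 90 higher (0.737%) and 45 lower (0.368%).

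Individual isotigs differed widely in this respect. For paxillus_4416 the MH arrays read 11.70, 11.82 and 12.04, close to MC, with 0.44 for MC minus MH and 2.23 for MH minus FH. For paxillus_7460 these values were 0.41 and 2.15, and for paxillus_8833 they were -0.02 and 1.10. The MH arrays of paxillus_4034 read 10.60, 10.49 and 10.26, about as low as MC, with 0.10 (adjusted p = 0.58) and -2.63. Likewise, MC minus MH was 0.16 for paxillus_4036, 0.16 for paxillus_5071 and 0.19 for paxillus_5070, none of which passed the test. For paxillus_9370, on the other hand, MC minus MH was 1.86 and MH minus FH was 0.80. For paxillus_6442 the values were 1.83 and 1.10, and for paxillus_285 they were -1.61 and -1.43. The pair paxillus_5854 and paxillus_5855, which also rose on FH and fell on MC, stood between both extracts on MH, at 0.84 and 0.76 above MMN, with MC minus MH at -1.82 and -1.61.

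In several leading isotigs of the higher set, MH replicate 1 was lower than the other MH arrays. The MH arrays of paxillus_9755 read 11.82, 12.47 and 12.64, those of paxillus_6442 10.95, 11.63 and 12.01, those of paxillus_8662 11.55, 12.27 and 12.41, and those of paxillus_9370 10.60, 11.23 and 11.48. The 3 MH arrays of these isotigs still lay above all FH arrays and below all MC arrays.

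**Figure D3:**
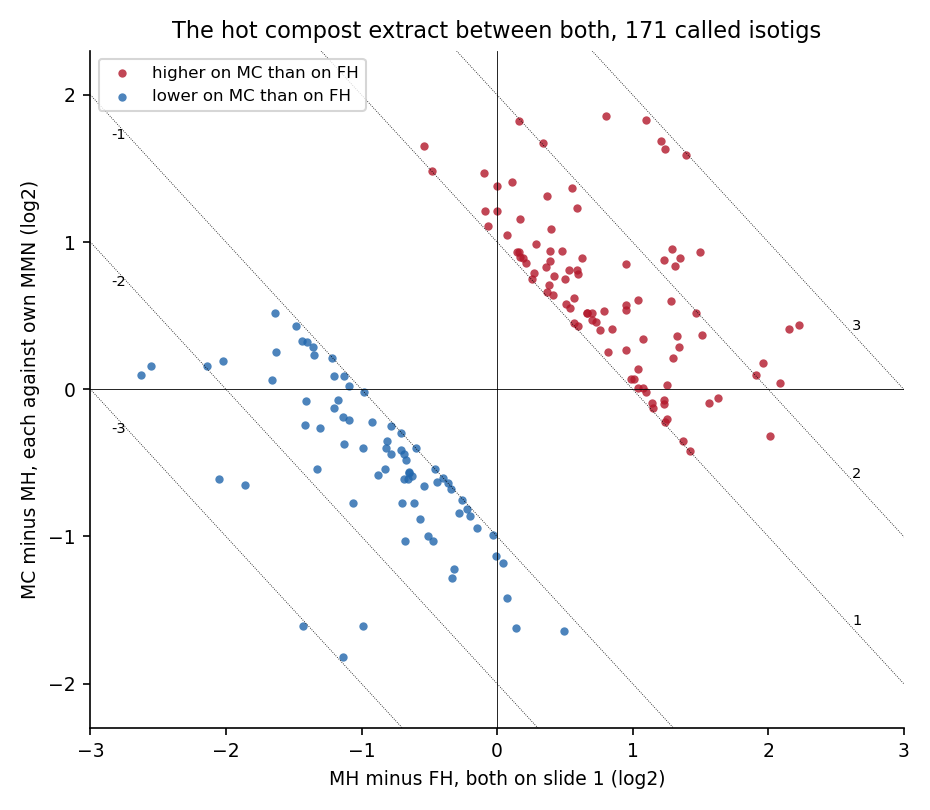
For the 171 called isotigs, MC minus MH (each against MMN of its slide, vertical axis) and MH minus FH (both on slide 1, horizontal axis), on the log2 scale. The dotted diagonals join points of equal difference between MC and FH, with its value beside them. Isotigs near the horizontal axis, such as paxillus_4416 and paxillus_4034, have MH near MC, and the spread along the diagonals shows that isotigs with 1 and the same difference divide it differently.

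On CMC, a medium with a modified cellulose and no litter, the median change of the higher set was 0.08 and that of the lower set -0.01, where the median of all isotigs was -0.07. Of the 96 higher isotigs, 9 were called higher on CMC than on MMN and 0 lower, and of the 75 lower isotigs 7 were called higher and 5 lower (over all isotigs, 1.66% higher and 0.352% lower). CMC and MC share the MMN arrays of slide 2. Of the 3 isotigs described as raised on FH with MC at the MMN level, paxillus_558 and paxillus_4580 stood at 1.03 and 1.02 above MMN on CMC, and paxillus_3701 at 0.15 (adjusted p = 0.097). Among isotigs that rose on FH and fell on MC, the value on CMC was 0.15 for paxillus_4034, 0.14 for paxillus_4036, 0.75 for paxillus_5071, 0.80 for paxillus_5070, 0.53 for paxillus_5854, 0.51 for paxillus_5855 and -0.44 for paxillus_285. The isotig paxillus_751 stood at -2.79 on CMC, between its values on MC and FH.

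**Figure D4:**
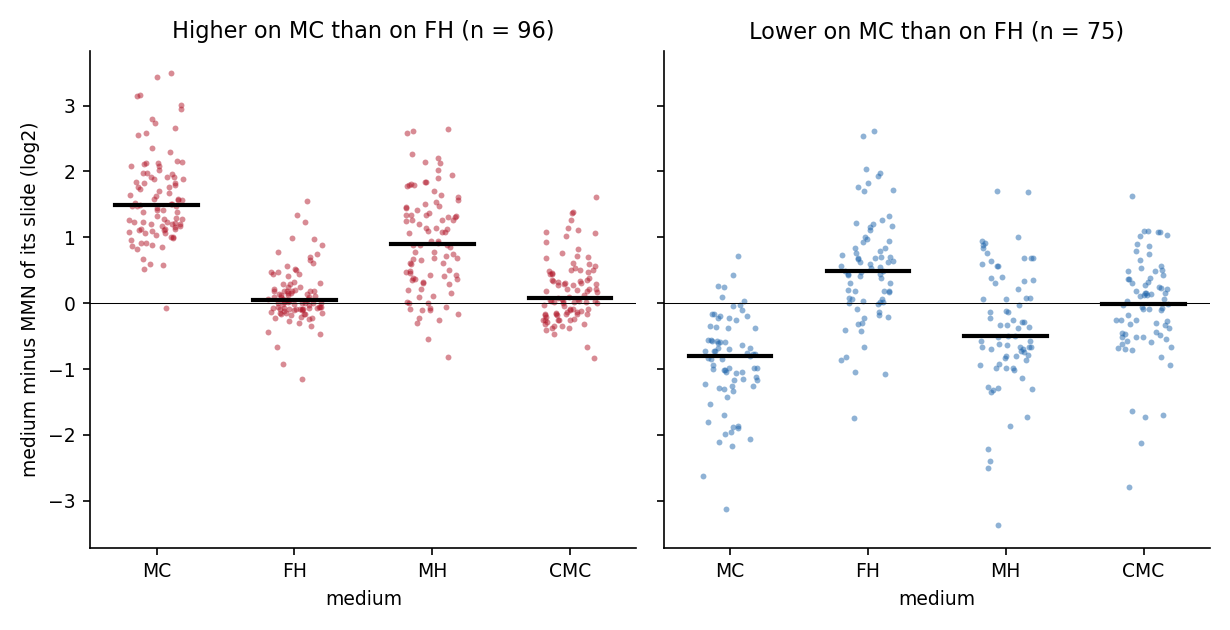
Change against MMN of the same slide (log2) on MC, FH, MH and CMC for the 96 isotigs called higher (left) and the 75 called lower (right) on MC than on FH. Points are isotigs and bars are medians, which for the higher set were 1.48 on MC, 0.04 on FH, 0.90 on MH and 0.08 on CMC, and for the lower set -0.80, 0.49, -0.49 and -0.01. The MC and FH columns show the values that made the calls.

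An enzyme name was at hand for 28 isotigs, and all 28 were measured. They had been annotated by the study as degrading organic matter and picked for a rise over MMN in these same arrays, so that their number is not independent evidence of a direction. The 28 are only a part of the study's list. Further called isotigs with a likely name in that list were left out, because no text gives their names. Between MC and FH, 5 of the 28 were called higher and 0 lower, and at the adjusted p alone 16 were higher, 3 were lower and 9 did not pass. Over all isotigs, 0.786% were called higher, and 6.04% were higher and 6.78% lower at the adjusted p alone. The median difference of the 28 was 0.54. Isotigs of 1 enzyme with near numbers, such as paxillus_5484 and paxillus_5485 or paxillus_3631 and paxillus_3633, can be variants of 1 gene. The enzyme counts and medians may thus not rest on separate measurements.

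Of 17 isotigs that act on aromatic compounds or belong to families known for it, 5 were called higher, with a median of 0.64 over the 17. At the adjusted p alone, 12 were higher, 1 was lower and 4 did not pass. Some of the 5 rose over 2-fold above MMN on MC alone, as given with each, so these counts lean to MC. All 3 named cytochrome P450 monooxygenases, haem enzymes that insert oxygen into organic molecules, were called. The MC arrays of paxillus_2772 read 11.81, 11.93 and 12.05, its FH arrays 10.42, 10.27 and 10.40, its MMN arrays of slide 2 10.12, 10.05 and 10.16, and those of slide 1 10.20, 10.14 and 10.20. All MC arrays lay above all FH arrays, and the difference was 1.64 (standard error 0.10, adjusted p = 1.2e-09 from limma). It stood at 1.53 above MMN on MH and at 1.07 on CMC. In contrast, paxillus_3633 (difference 1.27) and paxillus_3631 (difference 1.07) stood at 0.59 and 0.36 above MMN on MH, and at 0.12 and 0.03 on CMC. Their changes were 1.47 and 1.22 on MC, and 0.20 and 0.15 on FH. Only MC raised them over 2-fold, and the list was picked for a rise over MMN. That they stood higher on MC than on FH was thus largely set by this choice. The call of paxillus_3631 was lost without MC replicate 3 (0.95), without MMN replicate 2 of slide 1 (0.97) and without MMN replicate 2 of both slides (0.99).

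Phenylalanine ammonia lyase removes ammonia from phenylalanine and yields cinnamic acid, a precursor of aromatic metabolites. Its isotig paxillus_5485 read 13.64, 13.78 and 13.99 on MC, 12.81, 12.57 and 12.61 on FH, 10.96, 11.06 and 11.20 on MMN of slide 2, and 11.13, 10.98 and 11.25 on MMN of slide 1. Both extracts lay well above MMN and MC above FH, with changes of 2.73 on MC and 1.55 on FH and a difference of 1.18 (standard error 0.14, adjusted p = 7.9e-06 from limma). The isotig paxillus_5484 had a difference of 0.99 (adjusted p = 0.00074), just under 2-fold. Aromatic peroxygenase paxillus_10214, a secreted haem-thiolate enzyme that uses hydrogen peroxide to oxygenate aromatic compounds, read 13.80, 13.76 and 14.01 on MC and 13.06, 12.94 and 13.18 on FH. It changed by 1.26 on MC, 0.25 on FH, 0.50 on MH and 0.03 on CMC. Only MC raised it over 2-fold, so that its place in the list likewise favoured MC. Its difference of 1.01 (standard error 0.12) was just over 2-fold. It was 0.79 with no MMN taken off, 0.93 without MC replicate 3 and 0.95 without FH replicate 2, and the call was lost in each case.

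Laccases, multicopper oxidases that oxidise phenols, went both ways. Of 6 isotigs, 3 were higher on MC at the adjusted p alone: paxillus_8036 by 0.70, paxillus_7916 by 0.55 and paxillus_8102 by 0.49. The isotig paxillus_4041 was lower by 1.67-fold (difference -0.74, adjusted p = 2.1e-05 from limma), with MC arrays of 11.52, 11.68 and 11.74 and FH arrays of 11.91, 12.04 and 11.82. It changed by 0.29 on MC, 1.04 on FH, 0.96 on MH and 0.75 on CMC. Only FH raised it over 2-fold, so that its place in the list favoured FH. For paxillus_3452 and paxillus_3450 the differences were -0.54 (adjusted p = 0.011) and -0.34 (adjusted p = 0.13). The MMN arrays of the 2 slides were apart for 2 laccases, by 0.46 for paxillus_4041 and by 0.44 for paxillus_8036. With no MMN taken off, the difference was -0.28 for paxillus_4041 and 1.14 for paxillus_8036.

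Tyrosinases, copper enzymes that hydroxylate phenols and oxidise them to quinones, were strongly raised on both extracts in 2 of 3 isotigs. For paxillus_222 the MC arrays read 13.84, 13.77 and 13.94, the FH arrays 13.99, 13.97 and 14.03, and all MMN arrays between 11.14 and 11.30. The changes were 2.65 on MC and 2.71 on FH, and the difference was -0.06 (95% interval from -0.27 to 0.14, adjusted p = 0.71). The isotigs paxillus_1195 and paxillus_984 were higher on MC by 0.64 and 0.62 (adjusted p = 0.0059 and 0.0058), the first with changes of 2.41 on MC and 1.77 on FH and the other with 0.65 on MC and 0.03 on FH. The haem peroxidase paxillus_5582 was higher on MC by 0.71 (adjusted p = 0.0032). The catechol 1,2-dioxygenase paxillus_6174, which opens the aromatic ring of catechol, had a difference of 0.20 (95% interval from -0.03 to 0.42, adjusted p = 0.22).

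Iron and peroxide are both needed for the Fenton reaction. Ferric reductases turn ferric into ferrous iron, and their isotigs paxillus_2315 and paxillus_2317 were 1.80-fold and 1.85-fold higher on MC (adjusted p = 0.0014 and 0.00091), under the 2-fold threshold. For paxillus_2315 the MC arrays read 14.42, 14.34 and 14.45, the FH arrays 13.59, 13.49 and 13.66, and the MMN arrays 13.12, 12.84 and 13.41 on slide 2 and 13.23, 12.86 and 13.34 on slide 1. The siderophore isotig paxillus_300, annotated after the small molecules that bind ferric iron, was higher by 0.97 (adjusted p = 6.5e-06), and paxillus_6835, also a siderophore isotig, by 0.30 (adjusted p = 0.029), which did not pass. Iron permease paxillus_2900, an iron transporter, was lower by 1.57-fold (difference -0.65, adjusted p = 8.8e-05). It rose by 0.64 on FH and read 11.51, 11.62 and 11.55 on MC, within the range of MMN of slide 2. With no MMN taken off, the differences were 0.82 for both ferric reductases, 0.71 for paxillus_300, 0.35 for paxillus_6835 and -0.45 for paxillus_2900.

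The differences of the glyoxal oxidases, which release hydrogen peroxide as they oxidise aldehydes, were 0.35 for paxillus_3881 (95% interval from -0.02 to 0.73) and 0.21 for paxillus_3882 (from -0.24 to 0.65), with adjusted p of 0.19 and 0.56. Those of the citrate synthases, which make citrate from oxaloacetate and acetyl-CoA, were -0.27 for paxillus_5649 and 0.24 for paxillus_3047 (adjusted p = 0.27 and 0.080). All 4 isotigs had risen on each extract, by 0.81 to 1.30 on MC and by 0.57 to 1.18 on FH. The polysaccharide enzymes went opposite ways. Endoglucanase paxillus_6851 of family GH9, whose members hydrolyse cellulose chains, was higher on MC by 0.53 (adjusted p = 0.0011), whereas paxillus_6210 of GH61, a family of copper enzymes that cleave cellulose oxidatively, was lower by 1.31-fold (difference -0.39, adjusted p = 0.0092). Its changes were 0.21 on MC (adjusted p = 0.017), 0.60 on FH and 1.21 on MH. Those of paxillus_6851 were 1.27 on MC, 0.74 on FH, 0.93 on MH and 0.98 on CMC. Only MC raised paxillus_6851 over 2-fold, so that its place in the list favoured MC. With no MMN taken off, the differences were 0.35 for paxillus_6851 and -0.50 for paxillus_6210. They were then 0.08 for both glyoxal oxidases, -0.16 for paxillus_5649 and 0.13 for paxillus_3047.

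**Figure D5:**
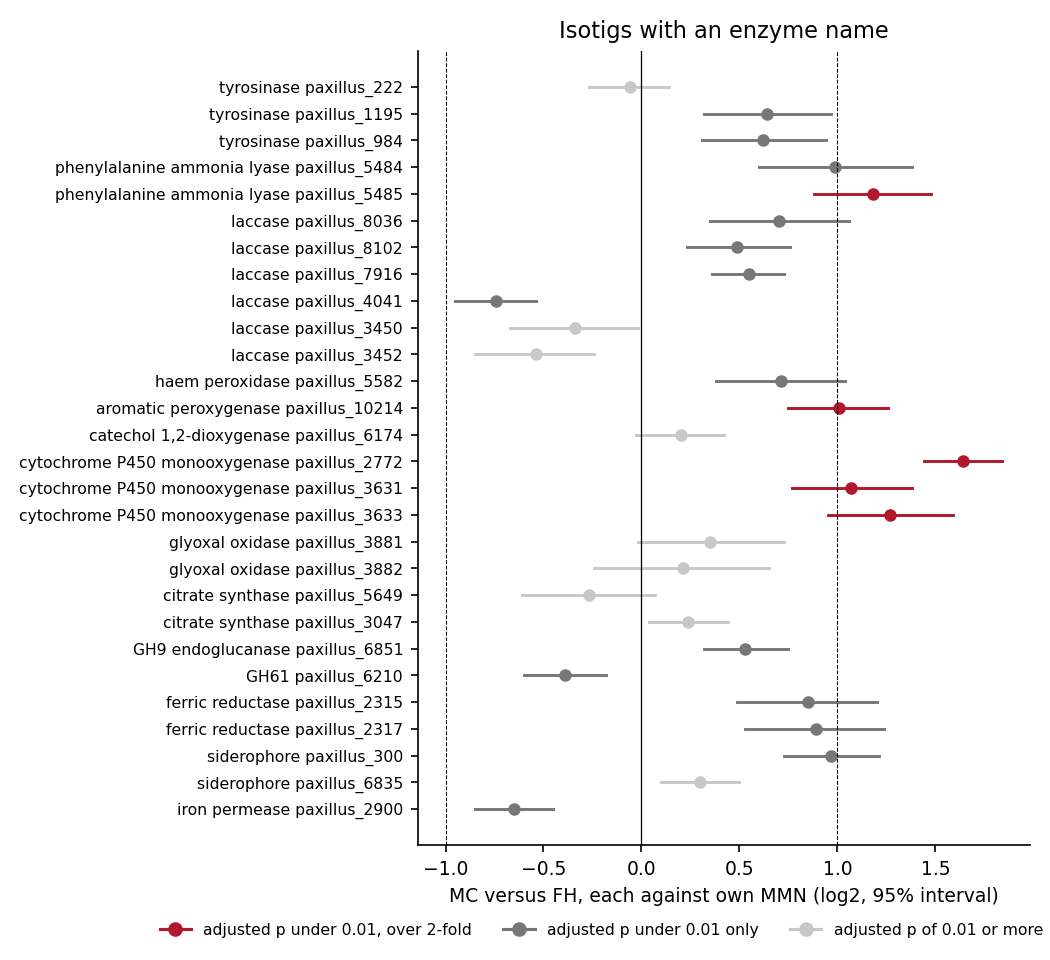
Difference between MC and FH, each against MMN of its slide (log2, horizontal axis), for the 28 isotigs with an enzyme name, with 95% intervals from limma not adjusted for multiple tests. The dashed lines mark a 2-fold difference. The 5 called isotigs, among them all 3 cytochrome P450 monooxygenases, lie to the right of the 2-fold line. Of these, paxillus_3631, paxillus_3633 and paxillus_10214 rose over 2-fold above MMN on MC alone. Laccase paxillus_4041, which rose over 2-fold above MMN on FH alone, and iron permease paxillus_2900 lie farthest to the left.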

How the data were processed

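The authors deposited RMA values on the log2 scale for each array, background corrected, normalized between arrays and summarised per isotig. For the version of RMA, the sources used here name none. The files of single arrays equalled the series table (largest difference 0). Random control probes were left out of the fits.

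Group means of all 18 arrays (6 groups of 3) were fitted with limma 3.58.1 in R 4.3.3 (lmFit, eBayes) (residual df 12, prior df 5.35), so that precision is limited by the number of arrays. The thresholds are those of the study. The script was tested on simulated data.

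Arrays were grouped by title, as MMN of slide 2 has the strain in its medium field. The labels call the 3 arrays of a group biological replicates without naming the step that was repeated, and p-values measure the spread between them. MMN arrays with the same number on both slides deviated together (r = 0.255, 0.451 and 0.495, each highest with its own number) and were taken as the same cultures in 1 alternative. Their estimated correlation was 0.534.

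Named isotigs are the 10 with the largest difference in each direction, up to 3 in each class of calls against MMN, and the 28 with an enzyme name. These names go back to the annotation of the study as used in an earlier analysis. Others are said to be singled out. The comparison, the members and the lists were chosen with earlier results of these data known. Sequences and positions are not analysed here.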

Additional observations from a re-analysis of the deposited data

Results flagged for a closer look

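In 8 of the 60 named isotigs the extracts moved the level to opposite sides of MMN. For each, the difference between MC and FH was itself tested by the contrast (adjusted p of 1.1e-09 or less from limma). The differences were -3.05 for paxillus_285, -2.96 for paxillus_5854, -2.61 for paxillus_5855, -2.52 for paxillus_4034, -2.39 for paxillus_4036, -1.98 for paxillus_5071, -1.84 for paxillus_5070 and -1.71 for paxillus_13127. All 8 were lower on MC and higher on FH than MMN, with an adjusted p under 0.01 for each change. Among all called isotigs, 34 of the lower set did so, and 4 of the higher set went up on MC and down on FH. These 4 are given above by number and are not among the 60.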

How the results depend on the processing

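Main counts of 96 higher and 75 lower isotigs stayed within 1.5 times under all alternatives but those of the threshold. A test against a 2-fold difference left 28 higher and 18 lower, a threshold of 1.5-fold gave 275 and 299, and no fold threshold gave 738 and 828. With no MMN taken off, 93 were higher and 63 lower, and 35 of the 171 calls were lost. The replicate numbers of MC, FH and MMN pair no cultures by the labels, and only some arrays correlated best with their own number. The fit with the replicate number as a block gave 96 higher and 75 lower, with all 171 calls shared. Leaving out each array in turn gave 84 to 107 higher and 67 to 80 lower isotigs, the fewest higher without MC replicate 3, and 139 of the 171 calls held in every such fit. Of 1612 values of the 60 named isotigs under 27 alternatives, 1536 kept their side of the threshold, 36 lost the call, 40 gained it and 0 changed direction. Single arrays decided calls near 2-fold. Besides the cases given with the isotigs, the call of paxillus_10214 was lost without MMN replicate 1 (0.96) or 3 (0.95) of slide 1 and without MMN replicate 1 (just under 2-fold) or 2 (0.96) of slide 2. That of paxillus_12895 was lost without MC replicate 2 (0.96) or 3 (0.93), FH replicate 2 (0.98), MMN replicate 2 of slide 1 (0.96) or of slide 2 (0.95), and that of paxillus_3583 without MC replicate 2 (-0.96) or MMN replicate 1 of slide 1 (-0.99) and after a repeated quantile normalization (-0.99). A call was gained for paxillus_5484 without MC replicate 1 (1.08), FH replicate 1 (1.05), MMN replicate 1 of slide 1 (1.05), or MMN replicate 1 (1.03) or 3 (1.12) of slide 2. It was gained for paxillus_2317 without MMN replicate 3 of slide 2 (1.03), for paxillus_300 without FH replicate 2 or any of 4 MMN arrays (up to 1.04), and for paxillus_8036 with no MMN taken off (1.14).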
